A study of Rattus norvegicus with 15 samples.

Results

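The mRNAs of the cytosolic ribosomal proteins were compared in epididymal fat of diet-induced obese and lean rats. Members were taken by name, as genes whose symbol is Rpl or Rps followed by a number, or is Rplp0, Rplp1, Rplp2 or Rpsa, wherever a probe set of the array names that gene and no other. S6 kinases (Rps6k) and names ending in -ps were left out. The rule gave 48 genes of 14217 named on the array, of which 33 carry large-subunit names (Rpl) and 15 small-subunit names (Rps). Each gene was read from its brightest probe set, and 44 of the 48 (29 large, 15 small) passed a filter on low signals. Rpl3l, Rpl28, Rpl39l1 and Rpl30 did not pass, with mean signals of 95.4, 99.2, 197 and 551. One of the names, Rpl7l1, belongs to a factor of large-subunit assembly and not to a ribosomal protein.

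All animals were male Long-Evans rats, housed singly with a light cycle of 12 hours. They were shipped at 14 weeks and killed at 26 weeks of age. The 7 obese rats had eaten a diet rich in fat and sucrose from weaning, and the 8 lean rats a regular chow. RNA of the whole fat pad of each rat was read on 1 Affymetrix RAE230_2 array, so a lower signal can mean fewer cells of a type or less RNA per cell, and these cannot be told apart. Signals are MAS5 signals, the scanner maker's summary of the probes of a probe set, in arbitrary units, and they cannot be compared between genes. Differences are given as obese minus lean means of log2(signal + 79.9), called the log2 fold change, with the standard error (SE) of the limma fit over 18625 probe sets and Benjamini-Hochberg adjusted p-values. Obese rat 1 and lean rat 7 gave the most similar pair of arrays (Pearson r 0.978 over all probe sets), the next pair standing at 0.957. Over the ribosomal protein genes their median absolute log2 difference was 0.041, against 0.0795 for the next closest pair. Each comparison was therefore made with all 15 arrays and with the 13 arrays that remain without these rats. Both sets share those 13 arrays and are not independent.

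The ribosome joins a small subunit, which decodes the mRNA, to a large subunit, which makes the peptide bond. Its proteins are needed in fixed ratios, and their genes are known for being expressed together in most tissues. Many of their mRNAs begin with a C followed by a run of pyrimidines, the terminal oligopyrimidine (TOP) tract, through which the kinase complex mTORC1 controls how strongly they are translated. Translational control changes ribosome loading and need not change the amount of mRNA that an array measures.

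The starts of the genes were read from RefSeq promoter windows on GRCr8, which were present for 41 of the 48 members. They are shown because the TOP tract is the sequence feature by which these mRNAs are known as a group; the 9 genes were picked with their values known, to show starts with and without it. Each line gives 30 bases, 12 before and 18 from the annotated start, and capitals mark a C at the start base with the unbroken pyrimidines that follow it, where there are at least 4.
Rplp0 (chr12:46718373-46718402, minus strand): cgcaccgcacttCTCTCgccaggcgtcctc
Rpl14 (chr8:129163608-129163637, plus strand): cgggccctctccCTTCTCgctgagcgccgc
Rps15 (chr7:10068098-10068127, minus strand): tgacaccgcttcCTTTTCCCagcagccgcc
Rpl35 (chr3:43165904-43165933, minus strand): cccttcctctttCTCTCgaaccgggcggcc
Rpl19 (chr10:83519052-83519081, plus strand): gaccagcaagctCTTTCCTTTCgctgctgc
Rps3a (chr2:173827025-173827054, minus strand): ttgtacttccgcCCTTTTggctctcagagc
Rpl39 (chrX:121195879-121195908, minus strand): tctaatcgcgttCTTCCggcctgtcctttc
Rpsa (chr8:128728867-128728896, plus strand): ttccgcgctaccctggaacgggtccgtacg
Rpl26 (chr10:54109680-54109709, plus strand): gtgtcaacttacagaaccggaagtcgcatg
Such a tract stood at the annotated start of 11 of 41 members (26.8%), against 2.63% of all 33469 windows. Within 10 bases of the start it was found in 27 members (65.9%), against 28.9% of all windows. The looser search raised the share both in members and in all windows, and how exactly the starts are annotated was not examined. In Rpsa and Rpl26 no tract was found at the annotated base. Genes of mitochondrial ribosomal proteins held a tract at the start in 3.28% of 61 windows, and proteasome genes in 3.03% of 33. In the whole 300-base windows, searched on both strands, CCGGAAG stood in 24.4% of members against 8.75% of all windows, AAGATGGC in 9.76% against 3.17%, and TATAAA in 14.6% against 14.2%. Genes of mitochondrial ribosomal proteins and of the proteasome held CCGGAAG in 32.8% and 33.3% and AAGATGGC in 23.0% and 21.2% of their windows, in each case more often than the members. These matches describe the letters of the windows only.

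No ribosomal protein gene passed the test between obese and lean fat. With 15 arrays 0 of 44 members had an adjusted p under 0.05 in limma (0.0% of all 18625 probe sets passed), and with 13 arrays again 0 of 44, where 1.01% of all probe sets passed (0.725% with a higher and 0.29% with a lower signal in obese rats). The smallest adjusted p of a member was 0.150 with 15 arrays and 0.0993 with 13, both for Rplp0. At an unadjusted p under 0.05 stood 7 of 44 members in either set (15.9%), against 15.6% of all probe sets with 15 arrays and 17.8% with 13. All 7 had a log2 fold change above 0, a direction in which 6.74% of all probe sets stood below that p with 15 arrays and 7.59% with 13. No member stood below that p with a lower signal in obese rats, where 8.82% of all probe sets stood with 15 arrays and 10.2% with 13. Bright probe sets in general leaned the same way. A mean signal above 20000 was found for 38 of the members and for 328 other probe sets that name no ribosomal protein. Probe sets that name no gene were not left out of the 328, and whether any reads a ribosomal protein mRNA was not checked. Of these 328, 44 stood below that p with a higher and 11 with a lower signal in obese rats with 15 arrays. With 13 arrays the counts were 49 and 15. In every one of the 44 members the signals of obese and lean rats overlapped, in both sets. Over all probe sets the groups were apart in 0.107% with obese rats higher and 0.0859% with obese rats lower with 15 arrays, and in 0.918% and 0.532% with 13.

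The differences were small on either side. Log2 fold changes of the members ran from -0.33 to 0.35 with 15 arrays and from -0.34 to 0.40 with 13. The 95% intervals of all 44 lay within 1 log2 unit of 0 in both sets, and those of 38 within 0.5 with 15 arrays and of 34 with 13. The typical member had an interval of 0.22 to each side with 15 arrays. The median log2 fold change of the members was 0.06 with 15 arrays and 0.07 with 13, beside -0.04 for all probe sets in each. It was above 0 in 27 of 44 members, against 42.5% of all probe sets with 15 arrays and 42.2% with 13; after quantile normalization, which gives every array the same distribution, 22 of 44 stood above 0 with 15 arrays and the median was -0.0013. When each array was instead set to a common median signal, 36 of 44 stood above 0, the members' median was 0.16 and that of all probe sets moved from -0.04 to 0.07. The scale chosen for the arrays sets the side of 0 on which many members stand. Large- and small-subunit genes each had a median of 0.06 with 15 arrays, with 18 of 29 and 9 of 15 above 0. The 328 other probe sets with a mean signal above 20000 had a median of 0.04 with 15 arrays, with 197 above 0. With 13 arrays their median was 0.05, with 196 above 0.

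**Figure D1:**
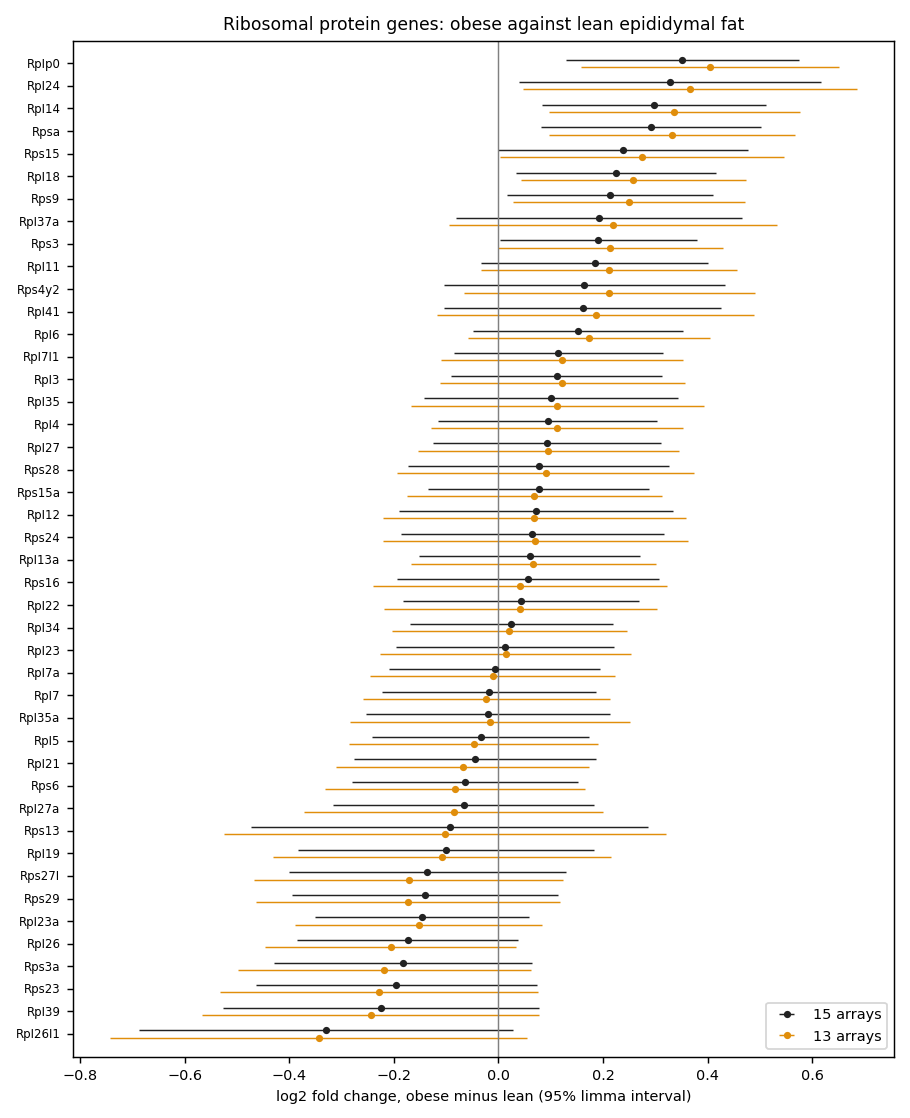
Log2 fold change (obese minus lean, horizontal axis) of the 44 tested ribosomal protein genes, with 95% limma intervals, for all 15 arrays (black) and for the 13 arrays without obese rat 1 and lean rat 7 (orange). The genes run from Rpl26l1 at -0.33 to Rplp0 at 0.35, and in most of them the interval includes 0.

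Rplp0, the protein on which the ribosomal stalk is built and which helps to recruit the elongation factors, had the highest log2 fold change of the members. Its signal was 23169, 27308 and 31312 (lowest, median, highest) in the 7 obese rats and 17702, 20749 and 27188 in the 8 lean rats. All 7 obese rats stood above the lean median and 4 of them above every lean rat. The log2 fold change was 0.35 ± 0.11 (SE, 15 arrays; limma adjusted p 0.150) and 0.40 ± 0.12 with 13 arrays (adjusted p 0.0993). With arrays set to a common median it was 0.52 with 13 arrays, and that value passed the test (adjusted p 0.0442), the single member call under any setting tried. Under quantile normalization it was 0.26 with 15 arrays (adjusted p 0.267). Rplp1 and Rplp2, its partners in the stalk, have no probe set that names them alone here, so the rest of the stalk was not analysed here.

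Rpsa, a small-subunit protein also known as the laminin receptor, had signals of 28488, 31087 and 38025 in obese and 21334, 26653 and 30054 in lean rats. It was above every lean rat in 5 of 7 obese rats, the most of any member. Its log2 fold change was 0.29 ± 0.10 with 15 arrays (limma adjusted p 0.187) and 0.33 ± 0.11 with 13 (adjusted p 0.140). Its other probe sets did not show a difference of that size: they gave 0.01 and 0.09 with 15 arrays. The brightest probe set, which the rule keeps, thus gave the highest of the 3 values for Rpsa.

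Rpl14, a protein of the large subunit whose gene start carries the tract shown above, had signals of 28594, 30359 and 39455 in obese and 21435, 25426 and 31789 in lean rats. All 7 obese rats exceeded the lean median and 3 exceeded every lean rat. The log2 fold change was 0.30 ± 0.10 with 15 arrays (limma adjusted p 0.186) and 0.34 ± 0.11 with 13. A second probe set for Rpl14, too dim to be tested with a mean signal of 313, had a difference of group means of -0.31.

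Rpl18 and Rps9 were of the same kind. Rpl18, a large-subunit protein and one of those mutated in Diamond-Blackfan anaemia, read 31465, 32429 and 40006 in obese and 24987, 29915 and 32789 in lean rats. Its log2 fold change was 0.22 ± 0.09 with 15 arrays (limma adjusted p 0.248). Rps9, a protein of the small subunit, read 40115, 41497 and 51732 in obese and 32611, 39090 and 44598 in lean rats, with a log2 fold change of 0.21 ± 0.09 (limma adjusted p 0.286). For both genes every obese rat lay above the lean median, 3 lay above every lean rat, and the highest obese values came from rats 3, 6 and 7.

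Rpl24, which forms a bridge between the subunits, had a log2 fold change of 0.33 ± 0.14 with 15 arrays (limma adjusted p 0.262). It read 23099, 26200 and 38717 in obese and 15926, 22259 and 28812 in lean rats. The highest value came from obese rat 7 and stood far from the other 6 obese rats, and no other obese rat exceeded the highest lean rat.

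At the other end stood Rpl26l1, a close copy of Rpl26 in the large subunit. Its signals were 577, 748 and 1244 in obese and 866, 1008 and 1622 in lean rats, and 4 of 7 obese rats fell below every lean rat. The log2 fold change was -0.33 ± 0.17 with 15 arrays (limma adjusted p 0.358). Rpl26 itself, a protein near the exit of the peptide tunnel, was read from a far brighter probe set at 77328, 97970 and 111253 in obese and 92455, 108727 and 126892 in lean rats. Its log2 fold change was -0.17 ± 0.10 (limma adjusted p 0.411), and 1 of 7 obese rats lay above the lean median.

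Rps23, which lies at the decoding centre of the small subunit, read 90632, 121944 and 141140 in obese and 94867, 141313 and 159944 in lean rats. None of the 7 obese rats reached the lean median, and obese rats 2 and 8 with lean rat 8 were the lowest. The log2 fold change was -0.20 ± 0.13 with 15 arrays (limma adjusted p 0.476). It lay near 0, at 0.0045 with 13 arrays, once the 3'/5' signal ratio of Gapdh (log2), a measure of RNA integrity and labelling, was fitted as a covariate. Rps3a, a small-subunit protein at the mRNA exit side, likewise had no obese rat above the lean median, with signals of 63374, 82823 and 95174 in obese and 72058, 98069 and 109167 in lean rats. Its log2 fold change was -0.18 ± 0.12 (limma adjusted p 0.464). Rpl39, a small protein of the peptide tunnel, and Rpl23a, a protein at the tunnel exit, had log2 fold changes of -0.22 ± 0.14 and -0.15 ± 0.10 (limma adjusted p 0.463 and 0.481).

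**Figure D2:**
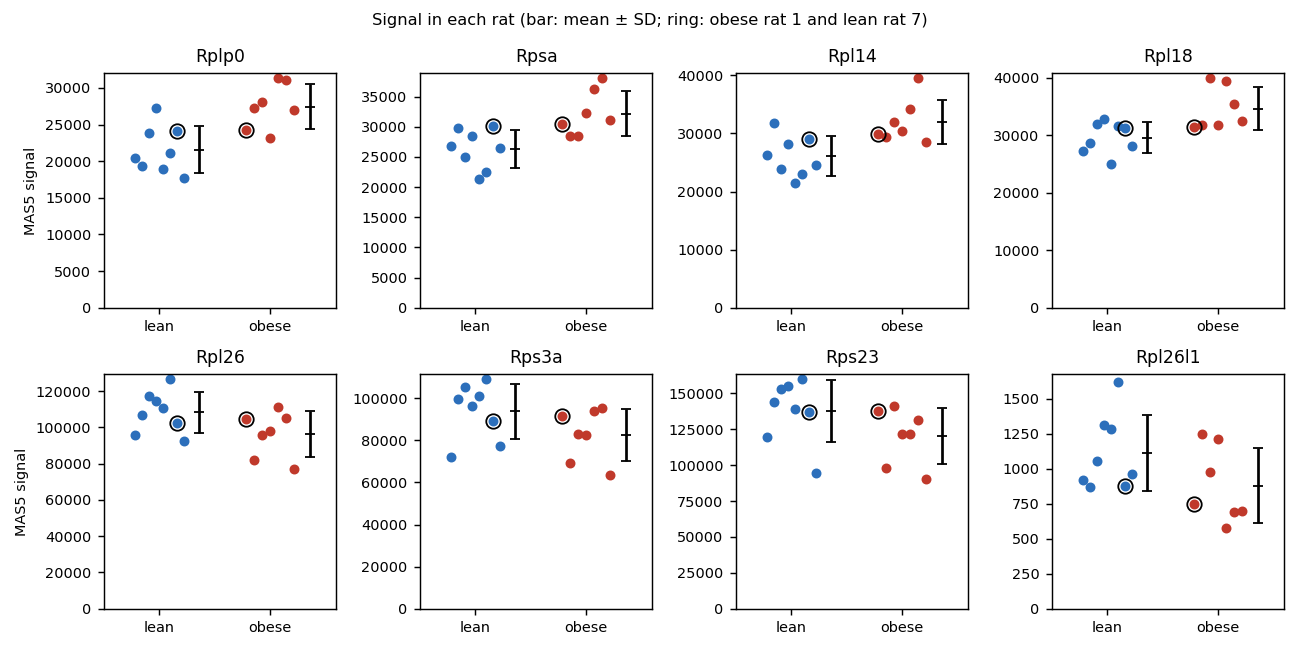
MAS5 signal (arbitrary units, axes from 0) of 8 named genes in each lean (blue) and obese (red) rat, with the mean ± SD beside each group and rings around obese rat 1 and lean rat 7. Rplp0, Rpsa, Rpl14 and Rpl18 stand higher in most obese rats and Rpl26, Rps3a, Rps23 and Rpl26l1 lower, and in all 8 the groups overlap.

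Genes with functions beyond the common structure were read in the same way. Rps6, the substrate of S6 kinase after insulin and nutrient signals, had signals of 74944, 99018 and 108291 in obese and 83650, 95172 and 116002 in lean rats. Its log2 fold change was -0.06 ± 0.10 with 15 arrays (limma adjusted p 0.802). Rpl5 and Rpl11, which with 5S rRNA form a particle that can hold back Mdm2 and so stabilise p53, had log2 fold changes of -0.03 ± 0.10 and 0.18 ± 0.10 (limma adjusted p 0.893 and 0.397). The direction of Rps6 and Rpl5 is not settled: both stood above 0 when arrays were set to a common median, and likewise when the Gapdh ratio entered the fit.

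Copies of ribosomal protein genes that differ between tissues were few on the array. Rps27l, a copy of Rps27 induced by p53, had a log2 fold change of -0.14 ± 0.13 with 15 arrays (limma adjusted p 0.635). Rps4y2, a copy of Rps4, stood at 0.16 ± 0.13 (adjusted p 0.555 in limma). Rpl7l1, the assembly factor, stood at 0.11 ± 0.09, while its second probe set gave -0.10. Rpl3l, known from muscle, had signals from 39.5 to 323 over all rats and was not tested. Rps27a and Fau, each made as a fusion protein, and Rps19bp1, a partner of Rps19 and no ribosomal protein, have no probe set that names them alone.

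Of 20 genes known from Diamond-Blackfan anaemia, 11 were tested, with a median log2 fold change of 0.08 and 0 called in either set. It was above 0 in 7 of the 11, against 42.5% of all probe sets with 15 arrays. A further 36 probe sets name several genes including a ribosomal protein, and 35 were tested. Their median log2 fold change was 0.05 with 15 arrays and 0.06 with 13, 21 of 35 stood above 0 and 0 were called, but none can be given to 1 gene.

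The level of ribosomal protein mRNAs differed more between rats of 1 group than between the groups. The mean over the 44 genes, in log2 relative to all rats, averaged 0.024 ± 0.132 for obese rats (SD, n = 7) and -0.021 ± 0.093 for lean rats (SD, n = 8). It was highest in obese rats 6 (0.189) and 7 (0.180) and lowest in obese rat 8 (-0.171), lean rat 8 (-0.152) and lean rat 1 (-0.128). In obese rats 6 and 7, 39 of the 44 genes stood above their own mean over all rats. In lean rats 1 and 8 that number was 10, and in obese rat 8 it was 11. The members' share of the summed signal of an array ran from 2.70% to 3.45%, with 3.09% ± 0.28 for obese rats (SD, n = 7) and 3.09% ± 0.18 for lean rats (SD, n = 8). Large and small subunits ordered the rats much alike: obese rats 6 and 7 were the highest pair and obese rat 8 and lean rats 1 and 8 among the lowest for each.

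**Figure D3:**
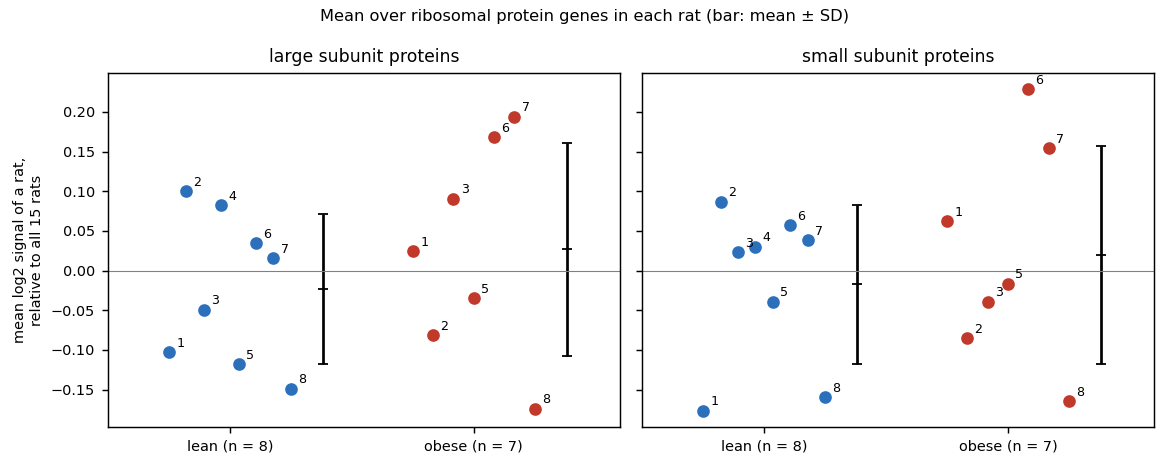
Mean log2 signal of each rat relative to all 15 rats (vertical axis) over the 29 large-subunit genes (left) and the 15 small-subunit genes (right), with rat numbers and the mean ± SD of each group. Obese rats span the whole range, from obese rat 8 at -0.174 to obese rat 7 at 0.194 for the large subunit, with the lean rats within it. For the small subunit the lowest value is that of lean rat 1, at -0.177, and the highest that of obese rat 6, at 0.229.

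Measures of the arrays and the tissue differed between the same rats. The median signal of an array was lowest in obese rats 7 (691) and 6 (696), and ran from 723 to 860 in the others. Bacterial spike-in controls had their lowest mean log2 signals, from 12.5 to 12.7, in obese rats 2 and 8 and lean rat 8, which are also low for the members. Lean rats 1 and 5, also low for the members (-0.128 and -0.091), had spike-in levels of 13.2 and 13.9. The highest spike-in level, 15.7 in obese rat 3, went with a members' mean of 0.046. The Gapdh 3'/5' ratio (log2) averaged 0.77 ± 0.28 for obese rats (SD, n = 7) and 1.05 ± 0.26 for lean rats (SD, n = 8). Markers of fat cells were bright in both groups, with mean signals of Adipoq of 54123 and 57349 in obese and lean rats. Log2 fold changes of the 8 ran from -0.16 to 0.68 with 15 arrays, 4 above and 4 below 0, and 0 were called; 1 had an unadjusted p under 0.05, Lep, which encodes leptin and is named after its values were seen, at 0.68 ± 0.18 (limma adjusted p 0.115). Of 12 macrophage markers, all had log2 fold changes above 0, and Gpnmb, Lgals3, Tyrobp and Cd68 were called with 13 arrays and 0 with 15. Their summed signal ran from 102329 to 281252 in obese and from 77474 to 116537 in lean rats, none of the 12 was at 0, and the highest value belonged to obese rat 6. Obese rat 8, lowest for the ribosomal protein genes, had 164701. Of 11 lymphocyte markers 4 were tested and 0 called, with summed signals of 5909 to 7566 in obese and 5825 to 8236 in lean rats, and no marker of epididymal epithelium passed the filter. Markers of mast cells, mesothelium, endothelium, red blood cells and fat cell progenitors had 0 called in either set. The mean over mesothelial markers, in log2 relative to all rats, varied widely. It ran from -0.47 to 0.42 in obese and from -0.68 to 0.53 in lean rats. The part of these measures in the members' values was not tested beyond the covariates named here.

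Within the groups the ribosomal protein genes varied together on the deposited scale. Pearson's r between each pair of members was taken over the 15 rats after the group means were removed; it has no p here, since all pairs share the same arrays. The median r was 0.35 (946 pairs, 80.9% above 0) with 15 arrays and 0.37 with 13. Over all pairs of tested probe sets the median was 0.0031. It was 0.08 for 71 mitochondrial ribosomal protein genes and 0.17 for 37 proteasome genes. Rpl35, Rpl3 and Rpl6, all proteins of the large subunit, had the highest median r with the other members, at 0.65, 0.59 and 0.57, and are named here after their values were seen. Pairs within the large subunit had a median of 0.38, pairs within the small subunit 0.28, and pairs across the subunits 0.34.

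The brightness of a probe set and the scale of the arrays moved with this pattern. The 38 members with a mean signal above 20000 had a median r of 0.48. The 6 dimmer ones, named after their values were seen (Rps4y2, Rps13, Rpl26l1, Rps27l, Rpl7l1 and Rpl39), had -0.18 among themselves. The 328 other probe sets above 20000, which name no ribosomal protein but from which those naming no gene were not left out, had 0.20. Quantile normalization gives every array the same distribution, and so removes a shift shared by the brightest probe sets, whatever its source. After it the median r of all members was 0.09. That of the 38 bright members was 0.12 and that of the other bright probe sets 0.0057. Within the large subunit it fell to 0.03, and within the small subunit to 0.23. With arrays set to a common median signal the medians rose instead. All members then had 0.51, the bright members 0.62, the other bright probe sets 0.34 and all tested probe sets 0.04. On the deposited scale the median r of all members was 0.44 with the Gapdh ratio as a covariate. With the spike-in level it was 0.37 and with the median signal of the array 0.41. Without obese rats 6, 7 and 8 and lean rat 8, the rats with the highest and lowest means, it was 0.24. Leaving out the extremes of the members' own mean tends to lower r by the choice itself, so nothing is concluded from that value. The other bright probe sets had 0.19 without these rats. Members with the tract at their annotated start had a median r of 0.44 (10 genes), running from 0.05 for Rpl39 to 0.65 for Rpl35. Those with a window but without the tract had 0.42 (28 genes). Median log2 fold changes were 0.03 with the tract and 0.07 without it.

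**Figure D4:**
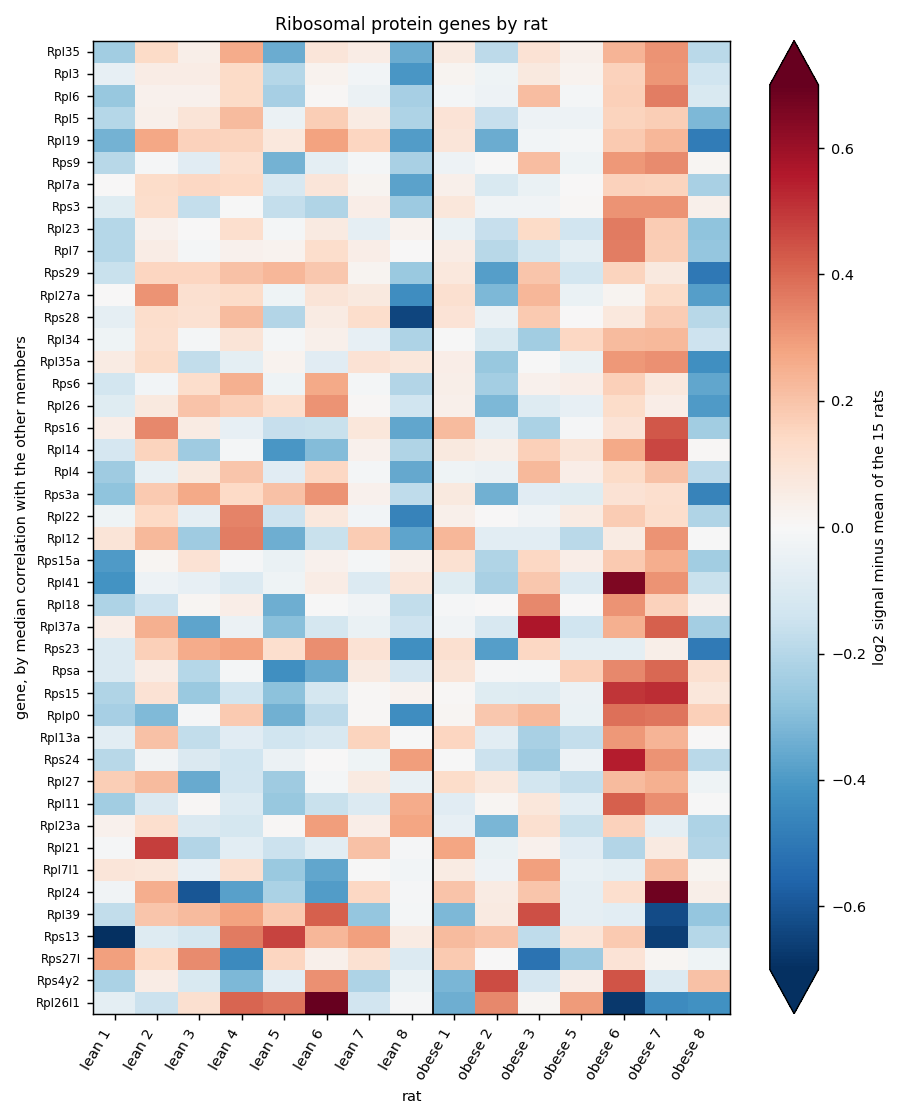
Log2 signal of the 44 tested genes (rows, ordered by their median correlation with the other members) in each rat (columns), relative to the mean of the 15 rats. The columns of obese rats 6 and 7 are red in 39 of 44 rows and those of lean rat 8 and obese rat 8 mostly blue, while the dim probe sets in the bottom rows follow patterns of their own.

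**Figure D5:**
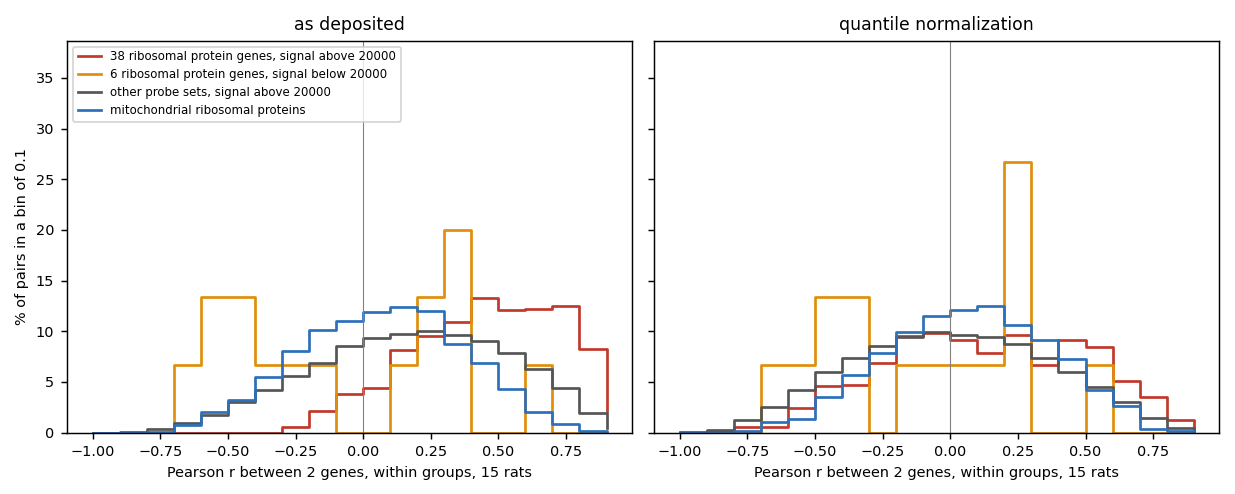
Share of gene pairs (vertical axis, % in bins of 0.1) by Pearson r within groups over 15 rats (horizontal axis), on the deposited scale (left) and after quantile normalization (right). The 38 bright ribosomal protein genes lie to the right on the deposited scale, with a median of 0.48, and centre on 0.12 after quantile normalization.

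Genes that work with the ribosome were described from lists, and none of their members was called in either set on the deposited scale. Counts above 0 are for 15 arrays on that scale, which can move such counts as it did for the ribosomal protein genes. Beside them, 42.5% of all probe sets stood above 0, and 197 of the 328 other probe sets with a mean signal above 20000. Of 13 tested mRNAs listed as also having a TOP tract, 12 had a log2 fold change above 0. Their median was 0.15 with 15 arrays and 0.18 with 13, and the tract was not checked in these genes here. Those with the smallest p were Eef2, which moves the ribosome along the mRNA, at 0.29 ± 0.10 with 15 arrays (limma adjusted p 0.199), Eef1g at 0.26 ± 0.10 and Eif4b at 0.21 ± 0.10. The signal of Eef2 averaged 27696 ± 3056 for obese rats (SD, n = 7) and 22694 ± 3252 for lean rats (SD, n = 8). With 13 arrays set to a common median, the log2 fold change of Eef2 was 0.46 and passed the test (limma adjusted p 0.0441). Among initiation factors 21 of 27 stood above 0, with a median of 0.07. Eif3i and Eif3k are subunits of the factor that prepares the small subunit for mRNA. Their log2 fold changes were 0.31 ± 0.09 and 0.56 ± 0.17 (limma adjusted p 0.133 and 0.145). Eif4a1, an RNA helicase, stood at 0.38 ± 0.14.

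For mTORC1 and its surroundings 16 of 20 genes stood above 0, against 42.5% of all probe sets with 15 arrays, with a median of 0.10. Ddit4, an inhibitor of mTORC1 induced by stress, stood at 0.35 ± 0.14 (limma adjusted p 0.252), Rragc, a GTPase that signals amino acids to it, at 0.17 ± 0.08, and Myc, a driver of ribosome production, at 0.49 ± 0.23. Ribosome assembly factors stood above 0 in 27 of 38 genes with a median of 0.05; Ebna1bp2 was at 0.30 ± 0.10, Fbl, the methyltransferase of rRNA, at 0.23 ± 0.10, and Ltv1, a factor of small-subunit maturation, at -0.40 ± 0.15 (limma adjusted p 0.178, 0.284 and 0.211). Of 10 genes of RNA polymerase I transcription 6 stood above 0, with a median of 0.05; Polr1b was at -0.25 ± 0.15, Polr1c at 0.14 ± 0.09 and Ubtf at 0.17 ± 0.11, the last turning to -0.10 when its probe sets were averaged. Proteins of the mitochondrial ribosome, which is built separately, had a median of 0.08 with 50 of 71 above 0, and proteasome subunits 0.15 with 30 of 37 above 0, with 0 called in each.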

How the data were processed

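Each of the 15 rats gave 1 RAE230_2 array. The deposited value table holds intensity values as MAS5 signals (per the submitters' processing notes; the version is not given in the sources used here), on a linear scale; arrays share a mean of 1500.3 to 1500.4 after trimming 2% at each end. The labels and the design text differ on RNA input (6 or 5 µg) and on the extraction reagent. Signals were taken as log2(signal + 79.9), the 10th percentile of all signals, and probe sets above the 40th percentile of mean log2 signal (18625 of 31099, controls left out) were tested with limma 3.58.1 (R 4.3.3) and Benjamini-Hochberg adjustment at 0.05, after the code was tested on simulated data. Genes were named from the platform annotation, updated through RefSeq gene identifiers (20758 of 20826 single-gene probe sets matched). Obese and lean groups come from sample titles. The members and lists were chosen with earlier results of these data known. Named with values are the 6 members with the smallest p in each direction, stalk proteins, copies and fusions, Rps6, Rpsa, Rpl5 and Rpl11, and up to 3 genes of each other list. Alternatives changed the pseudocount, filter, normalization, covariates, weights, probe sets and rats. The number of arrays limits the precision.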

Additional observations from a re-analysis of the deposited data

Results flagged for a closer look

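Rpl24, the bridge protein of the large subunit, was singled out because obese rat 7 stood far above the other obese rats, at 15.24 on the log2 scale against 14.50 to 14.77 in the other 6. It was 1 of 48 groups of values examined in this way, and chance alone flags about 1 group in 20.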

How the results depend on the processing

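No member was called under any alternative for 15 arrays; for 13 arrays 1 member, Rplp0, was called with median centring and 0 under all others. Eef2 was the other named gene called there (adjusted p 0.0441 in limma). Leaving out each rat in turn gave 0 members called in both sets and medians of 0.02 to 0.09 with 15 arrays and 0.016 to 0.091 with 13. Over the other alternatives the members' median ran from -0.0013 to 0.16 with 15 arrays and from 0.0017 to 0.18 with 13, the lowest values by quantile normalization and the highest by median centring. Signs turned for a few named genes, none of them called. Rpl5 was 0.068 with median centring in each set and 0.063 (15 arrays) and 0.069 (13) with the Gapdh covariate, and with each rat left out in turn it ran from -0.068 to 0.015 (15) and from -0.089 to 0.0078 (13), the highest without obese replicate 8. Rps6 was 0.037 and 0.033 with median centring and 0.059 and 0.073 with the Gapdh covariate. Rps23 was 0.0045 with the Gapdh covariate and 13 arrays, and Ubtf -0.097 and -0.090 with the mean over probe sets. Counts over all probe sets moved more: 0 with 15 arrays became 49 with a 60th percentile filter, 3 with none, 8 with trended robust variances, 245 without obese rat 1 and 1 without lean rat 7. The 189 with 13 arrays became 334 with the stricter filter, 46 without one, 14 with the Gapdh covariate, 123 with a pseudocount of 1, 309 with trended robust variances, 389 with median centring, 124 with quantile normalization, 292 with the spike-in covariate (added after seeing the data, as were the covariates for pairwise r and the rats left out there) and 51 to 262 when 1 rat was left out. The replicate block, on rat numbers held in both groups, gave 0 members called and medians of 0.07 and 0.0022. It gave 3 probe sets called with 13 arrays. The correlation of same-numbered rats ran from -0.11 to 0.24, the highest for number 8. Obese rat 8 and lean rat 8 also had close spike-in levels (mean log2 12.518 and 12.523). Whether same-numbered rats share more than a number was not tested. The causes were not tested.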

Other observations

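The array carries a control probe set for 5S rRNA, the RNA partner of Rpl5 and Rpl11, which is not among the genes tested above and was looked at after its values were seen. Its signal was 1082, 1276 and 1756 (lowest, median, highest) in the 7 obese rats and 1527, 1856 and 2151 in the 8 lean rats, and 4 obese rats (2, 6, 7 and 8) stood below every lean rat. The log2 difference, obese minus lean, was -0.43 with 15 arrays and -0.49 with 13. No test is given, since this probe set, 1 of 57 controls, was picked for its values. The same 4 obese rats had the lowest Gapdh 3'/5' ratios (log2) of the obese group, from 0.35 to 0.76, and lean rat 8, lowest for 5S rRNA among the lean rats, had 0.56, the lowest lean value. The part of RNA integrity and labelling in the 5S rRNA signal was not tested.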
